A study of Mus musculus with 11 samples.

Results

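The canonical NFκB pathway was followed here through 10 of the 35814 gene symbols counted in renal CD4+ T cells of mice with ischemia–reperfusion injury (IRI). The members were chosen by their function, with no threshold on their level, but with earlier results of these data known. They are the IKK subunits *Ikbkb* and *Ikbkg*, the NFκB subunits *Nfkb1*, *Rela* and *Rel*, the inhibitors and IκB family proteins *Nfkbia*, *Nfkbib*, *Nfkbie* and *Bcl3*, and the feedback gene *Tnfaip3*. The study asked what IKK1 and NIK, kinases of the NFκB pathways, do in CD4+ T cells of the injured kidney. RNA came from 3 CD4cre controls, 5 mice labelled CD4IKK1Δ and 3 mice labelled CD4NIKΔ, all male C57BL/6 mice of 8 to 12 weeks whose renal pedicles on both sides had been clamped for 45 min, taken on day 2. Cre recombinase under the CD4 promoter was shared by all 3 groups, the controls included. The deletion groups also carried floxed *Chuk*, which encodes IKK1, or floxed *Map3k14*, which encodes NIK. The CD4 promoter is active from thymocyte development onwards, so that the deletion is not limited to the injured kidney or to mature CD4+ cells. Sham-operated mice were not analysed here.

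In the canonical pathway, a kinase complex of IKK1, IKK2 (*Ikbkb*) and the scaffold NEMO (*Ikbkg*) marks IκB proteins for degradation. IκBα (*Nfkbia*) and IκBε (*Nfkbie*) hold dimers of RelA, c-Rel and the *Nfkb1* product in the cytoplasm, and their loss lets the dimers enter the nucleus. The genes of several inhibitors are themselves NFκB targets, which closes a negative feedback loop. In T cells the antigen receptor reaches the complex through PKCθ and the paracaspase MALT1. The non-canonical pathway runs through NIK and IKK1 to the *Nfkb2* product and RelB.

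The start sites of several members carry a κB site, the DNA element bound by NFκB dimers. Of the 10 members, 8 had an entry in the RefSeq table of promoters (250 bases before to 50 bases after the start site, build GRCm38.p6). These 8 genes had 12 such windows, 4 of them of *Ikbkg* and 2 of *Tnfaip3*. The 10-letter κB consensus was searched on both strands, and 5 of the 12 windows held it, against 8.49% of 32544 distinct mouse promoters. Counted by gene, 5 of the 8 had a match in any window, against 9.55% of 27025 genes. The looser form GGGNNNNNCC stood in 51.0% of all promoters, so that a match to it says little about a gene. The sites are shown as the letters found at these genes, most of which encode inhibitors or feedback proteins. Whether a site goes with the level of a gene was not tested. Each stretch is given 5′ to 3′ on the strand of the gene, with the site in capitals:
Nfkbia, chr12:55492648-55492706, minus strand: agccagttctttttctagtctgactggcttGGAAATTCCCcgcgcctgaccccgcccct
Tnfaip3, chr10:19015411-19015452, minus strand: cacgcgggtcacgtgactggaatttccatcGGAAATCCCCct
Tnfaip3, chr10:19015496-19015565, minus strand: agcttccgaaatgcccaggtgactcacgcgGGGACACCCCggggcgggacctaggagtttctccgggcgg
Rel, chr11:23771021-23771091, minus strand: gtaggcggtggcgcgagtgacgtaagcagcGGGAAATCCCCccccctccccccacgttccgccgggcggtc
Nfkbie, chr17:45555564-45555633, plus strand: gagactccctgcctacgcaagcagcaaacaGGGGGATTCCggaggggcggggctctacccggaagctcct
Bcl3, chr7:19822744-19822773, minus strand: ttcagttcagtcggcggcagGGGAAGTCCC
The *Nfkbia* site began 29 bases before the start site and the *Nfkbie* site 106 bases before it. *Tnfaip3* held sites that began 125 and 12 bases upstream. Only 1.23% of all promoters held 2 or more matches, overlapping matches such as those of *Rel* included. The *Rel* site, 92 bases upstream, spans 11 bases because 2 matches overlap in it, and the *Bcl3* site began 3 bases after the start. These letters are a match to a motif and not a measurement of binding. *Rela*, *Ikbkg* and *Nfkbib* had no match in their windows.

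The libraries differed in how much T cell RNA they held. Depth lay between 15751632 and 25737046 estimated counts, so that 3 counts, used as the floor, equalled 0.117 to 0.19 CPM (counts scaled to a common library size). This floor covers counting error only, because no molecular identifiers marked the amplified molecules. Levels are CPM scaled by TMM factors over all libraries, in replicate order. The summed level of 16 T cell markers ran from 1661 to 3139 CPM in CD4cre, from 17.5 to 1439 CPM in the libraries labelled CD4IKK1Δ and from 8539 to 12660 CPM in those labelled CD4NIKΔ, with no overlap between the groups. In the group labelled CD4IKK1Δ the sums were 17.5, 154, 1439, 678 and 600 CPM, and replicates 1 and 2 had 1 and 2 of the 16 markers at 0 counts. *Cd3e*, which defines T cells, had 4 and 30 counts in these replicates and between 385 and 12835 counts in the other 9. Fewer T cells and less RNA per T cell cannot be told apart in such bulk libraries. The targeted genes did not follow the labels. *Chuk* stood at 16.6, 33.3 and 16.3 CPM in CD4cre and at 16.7, 21.3, 22.3, 15.3 and 26.5 CPM in the libraries labelled CD4IKK1Δ. *Map3k14* stood at 19.5, 19.6 and 14.8 CPM in CD4cre and at 12.8, 30.8 and 23.8 CPM in the libraries labelled CD4NIKΔ. Counts summed over a gene do not resolve floxed exons, and the groups are therefore named by their labels throughout.

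The kinase complex was measured through the genes of its catalytic subunit and its scaffold. *Ikbkb* (chromosome 8, 23148709 to 23196607 on GRCm39) had 33.9, 61.2 and 21.1 CPM in CD4cre. It had 12.1, 9.33, 13.3, 16.4 and 8.34 CPM in the libraries labelled CD4IKK1Δ and 44.4, 74.9 and 49.5 CPM in those labelled CD4NIKΔ. All 5 libraries labelled CD4IKK1Δ lay below all 6 others, and the ranges of CD4cre and CD4NIKΔ overlapped. *Ikbkg* (chromosome X, 73436216 to 73500393) had 28.4, 14.8 and 8.33 CPM in CD4cre, 24.0, 13.4, 24.8, 21.3 and 14.6 CPM in the libraries labelled CD4IKK1Δ, and 32.1, 6.64 and 26.3 CPM in those labelled CD4NIKΔ. The 3 groups overlapped throughout, and the lowest and the highest library both belonged to CD4NIKΔ. The span of *Ikbkg* shares 22963 bases with *G6pdx* on the opposite strand, that of *Bcl3* 14117 bases with *Gm16175* and that of *Ikbkb* 9382 bases with *Gm15346*. All members but *Rel* and *Nfkbie* share some bases of their span with a gene on the opposite strand. Spans include introns, and the bases shared by transcripts were not measured. The use of strand in counting is not stated in the sources used here, and an effect of the overlaps on the counts was not tested. Estimated counts of *Ikbkb* per count of *Ikbkg* were 1.19, 4.13 and 2.54 in CD4cre, 1.38, 11.3 and 1.88 in CD4NIKΔ, and between 0.504 and 0.769 in CD4IKK1Δ. This ratio does not depend on how a library is scaled, and it was below 1 in 5 of 5 libraries labelled CD4IKK1Δ and above 1 in the other 6. The ratio can still depend on the mix of cells in a library, which was not tested.

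The DNA-binding subunits had their lowest levels in the libraries labelled CD4IKK1Δ and their highest in those labelled CD4NIKΔ. *Rela* (chromosome 19, 5687493 to 5698161), which encodes the main transactivating subunit, had 61.4, 50 and 39.0 CPM in CD4cre. It had 3.69, 5.97, 14.8, 9.60 and 24.9 CPM in the libraries labelled CD4IKK1Δ and 134, 143 and 154 CPM in those labelled CD4NIKΔ. The 3 groups did not overlap, and the spread within CD4NIKΔ was 143.6 ± 10.0 CPM (SD, n = 3). *Nfkb1* (chromosome 3, 135290264 to 135397742) encodes a precursor that is processed to the DNA-binding partner of RelA. It stood at 47.1, 56.7 and 33.8 CPM in CD4cre, at 7.96, 7.33, 32.0, 14.4 and 13.4 CPM in CD4IKK1Δ, and at 66.1, 168 and 108 CPM in CD4NIKΔ. Its groups did not overlap either, although replicate 3 of CD4IKK1Δ came within 2 CPM of the lowest control. *Rel* (chromosome 11, 23686847 to 23721264) encodes c-Rel, the subunit most tied to lymphocytes. It had 23.4, 17.7 and 15.6 CPM in CD4cre, 3.04, 2.46, 7.75, 11.9 and 16.7 CPM in CD4IKK1Δ, and 30.4, 94.9 and 75.9 CPM in CD4NIKΔ. The highest CD4IKK1Δ library lay above the lowest control, whereas CD4NIKΔ lay above all others.

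*Nfkbia*, the gene of the main cytoplasmic inhibitor, was the most abundant member by far. *Nfkbia* (chromosome 12, 55535332 to 55539432) had 2153, 1669 and 1274 CPM in CD4cre, 82.7, 135, 783, 464 and 255 CPM in the libraries labelled CD4IKK1Δ, and 2020, 4470 and 3579 CPM in those labelled CD4NIKΔ. CD4IKK1Δ lay below both other groups, and CD4cre and CD4NIKΔ overlapped by 1 library each. *Nfkbie* (chromosome 17, 45866585 to 45874661) had 29.97, 24.7 and 29.8 CPM in CD4cre, 0.259, 1.94, 8.26, 9.25 and 3.92 CPM in CD4IKK1Δ, and 70.6, 109 and 93.2 CPM in CD4NIKΔ. Its 3 groups did not overlap, and the lowest value rests on 4 counts. *Bcl3* (chromosome 7, 19541553 to 19557570) encodes a nuclear IκB protein that works with dimers of the *Nfkb1* and *Nfkb2* products. It had 61.6, 47.8 and 26.8 CPM in CD4cre, 0.0647, 2.83, 17.7, 7.66 and 20.2 CPM in CD4IKK1Δ, and 129, 198 and 229 CPM in CD4NIKΔ. The groups did not overlap, and CD4IKK1Δ replicate 1 held a single count, which is under the floor. *Nfkbib* (chromosome 7, 28457486 to 28466937), the gene of IκBβ, had 3, 0 and 0 counts in CD4cre, 1, 1, 0, 0 and 0 counts in CD4IKK1Δ, and 0, 2 and 1 counts in CD4NIKΔ. All 11 libraries were thus at or under the floor of 3 counts. It was the only member that did not pass the expression filter, no fold is given for it, and its span overlaps *Sirt2* and *Ccer2* on the opposite strand.

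*Tnfaip3* (chromosome 10, 18874201 to 18891405) encodes a ubiquitin-editing enzyme that shuts off signalling to the kinase complex. Its levels were the least variable of all members in the controls, at 103, 88.1 and 101 CPM. They were 3.10, 2.99, 36.6, 22.8 and 28.7 CPM in the libraries labelled CD4IKK1Δ and 304, 309 and 332 CPM in those labelled CD4NIKΔ. The 3 groups did not overlap, and replicates 1 and 2 of CD4IKK1Δ stood apart from the other 3 of their group. The highest library held 111 times the CPM of the lowest for *Tnfaip3*, 41.7 times for *Rela* and 4.83 times for *Ikbkg*.

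**Figure D1:**
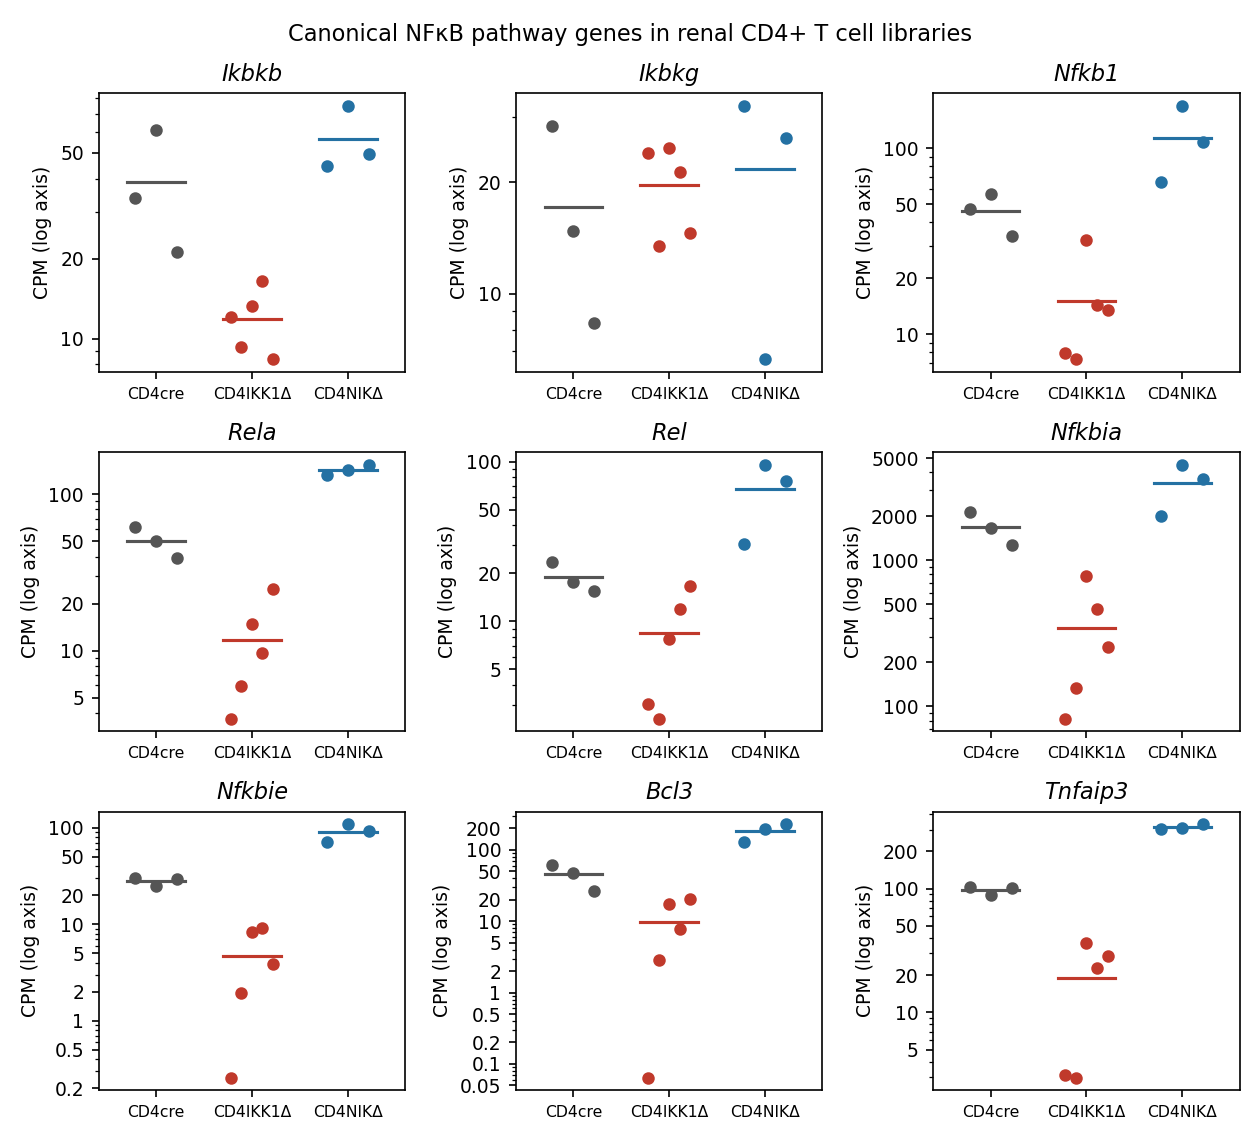
Levels in every library of the 9 members that passed the expression filter, as CPM with TMM factors on log axes that differ between panels; points are libraries in replicate order and bars are group means. The CD4NIKΔ mean is highest in all 9 panels and the CD4IKK1Δ mean lowest in all but that of *Ikbkg* with these factors, and *Tnfaip3* ranges from 2.99 to 332 CPM.

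Between the libraries labelled CD4IKK1Δ and CD4cre, no member passed edgeR's quasi-likelihood test with Benjamini-Hochberg adjustment (FDR under 0.05), although 7 of the 9 tested members were lower in every CD4IKK1Δ library than in any control. Of the 15653 genes tested, 0% were called higher and 0% lower, and 8.44% were lower and 6.02% higher without overlap of the groups. At an unadjusted p under 0.05 there were 6 of the 9 members, where 16.6% of all genes were, and DESeq2 called 5, where it called 4.24% of all genes. The 5 were *Ikbkb*, *Nfkb1*, *Rela*, *Nfkbia* and *Nfkbie*. The smallest FDR belonged to *Ikbkb*, which was 3.26-fold lower (log2 −1.71, standard error 0.35, FDR 0.0891 in edgeR), and lower in 5 of 5 libraries. *Rela* followed at −2.09 (standard error 0.51, FDR 0.107 in edgeR) and *Nfkb1* at −1.61 (standard error 0.44, FDR 0.129). The inhibitor and feedback genes had log2 fold changes of −2.31 for *Nfkbia*, −2.57 for *Nfkbie*, −2.23 for *Bcl3* and −2.37 for *Tnfaip3*, with FDRs from 0.159 to 0.363 in edgeR. *Ikbkg* differed by 0.19 on the log2 scale (95% confidence interval −0.69 to 1.07, FDR 0.887), and *Rel* by −1.17 (−2.43 to 0.10, FDR 0.338). The median over the 9 members was −2.09 on the log2 scale, where that over all genes tested was 0.02. Scaled to the T cell markers, 7 of the 9 members had positive log2 fold changes while the median of all genes was 4.87. Of the 9, 8 lay below that median. All genes of a library share the same factor, so this side largely carries over from the TMM fit. With replicates 1 and 2 of CD4IKK1Δ left out together, *Tnfaip3* was called at −1.73 (FDR 0.0342 in edgeR), so that these libraries decide that call.

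Between the libraries labelled CD4NIKΔ and CD4cre, 6 of the 9 tested members were called higher with TMM factors, whereas scaled to T cell markers all 9 had negative log2 fold changes. The 6 were *Nfkb1*, *Rela*, *Rel*, *Nfkbie*, *Bcl3* and *Tnfaip3*, and each was higher in 3 of 3 libraries than in any control. Of 15209 genes tested by edgeR, 12.1% were called higher and 8.97% lower, and 22.9% were higher and 22.4% lower without overlap. *Tnfaip3* had the smallest FDR and was 3.20-fold higher (log2 1.68, standard error 0.17, FDR 0.0023). *Rela* was 2.84-fold higher (log2 1.505, standard error 0.22, FDR 0.00556) and *Nfkbie* 3.19-fold (log2 1.68, standard error 0.23, FDR 0.00487). *Bcl3* had the largest difference, 4.04-fold (log2 2.01, standard error 0.34, FDR 0.0094), and *Rel* was 3.50-fold higher (log2 1.81, standard error 0.40, FDR 0.0215). *Nfkb1* was 2.45-fold higher (log2 1.29, standard error 0.35, FDR 0.0341). *Nfkbia* missed the threshold at log2 0.96 (95% confidence interval 0.25 to 1.68, FDR 0.0592), as did *Ikbkb* at 0.52 (−0.37 to 1.41, FDR 0.365) and *Ikbkg* at 0.34 (−1.08 to 1.75, FDR 0.727). The members' median was 1.5 against −0.02 over all genes. The calls of *Nfkb1* and *Rel* did not hold in all fits that left out a library, while their log2 fold changes stayed between 0.94 and 1.59 for *Nfkb1* and between 1.51 and 2.18 for *Rel*. *Nfkb1* stayed called in 1 of the 6 fits without a library, that without CD4NIKΔ replicate 1, with FDRs from 0.00746 to 0.115, and *Rel* in 2 of 6, with FDRs from 0.00257 to 0.083 in edgeR. Its call was lost without CD4cre replicate 2 or 3 or CD4NIKΔ replicate 2 or 3. *Rela*, *Nfkbie*, *Bcl3* and *Tnfaip3* were called in all 6. With the 11 libraries in 1 fit, none of the members was called, at an edgeR FDR of 0.0753 for the lowest, while 18.6% of all genes were. The fold changes hardly moved in that fit, with *Rela* at 1.52, *Nfkbie* at 1.69 and *Tnfaip3* at 1.69 on the log2 scale.

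With TMM factors, the direct comparison of the deletions gave the largest differences of the 3 comparisons for 8 of the 9 members, all but *Ikbkg*. With T cell markers as a covariate this did not hold for *Rel*, *Nfkbia*, *Nfkbie* and *Tnfaip3*. Scaled to T cell markers it did not hold for *Nfkbie* and *Bcl3*. With TMM factors, 8 of the 9 tested members were called lower in libraries labelled CD4IKK1Δ than in those labelled CD4NIKΔ, *Ikbkg* being the exception, whereas scaled to T cell markers 8 of the 9 had positive log2 fold changes. The groups did not overlap for any of the 8. Over 16546 genes, 22% were called lower and 20.2% higher by edgeR, and 24.4% were lower and 20.7% higher without overlap. The 3 largest differences were those of *Nfkbie*, *Bcl3* and *Tnfaip3*, with *Nfkbie* 19.2-fold lower (log2 −4.26, standard error 0.73, FDR 0.001), *Bcl3* 19.1-fold lower (−4.25, standard error 0.99, FDR 0.00695) and *Tnfaip3* 16.7-fold lower (−4.06, standard error 0.75, FDR 0.00208). Among the subunits, *Rela* was 12.1-fold lower (log2 −3.60, standard error 0.48, FDR 0.000236), *Rel* 7.98-fold and *Nfkb1* 7.57-fold. *Nfkbia* was 9.76-fold lower (log2 −3.29, standard error 0.65, FDR 0.00312 in edgeR). *Ikbkb* differed by the smallest factor among those called, 4.73-fold (log2 −2.24, standard error 0.34, FDR 0.000309). *Ikbkg* differed by −0.14 on the log2 scale, with a 95% confidence interval from −1.20 to 0.92. The members' median was −3.29, against 0.06 over all genes tested. All 8 calls were kept in each of the 11 fits that left out a library. The comparisons share libraries with each other, CD4cre serving both deletion groups, so that their values are given side by side and not as independent results.

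**Figure D2:**
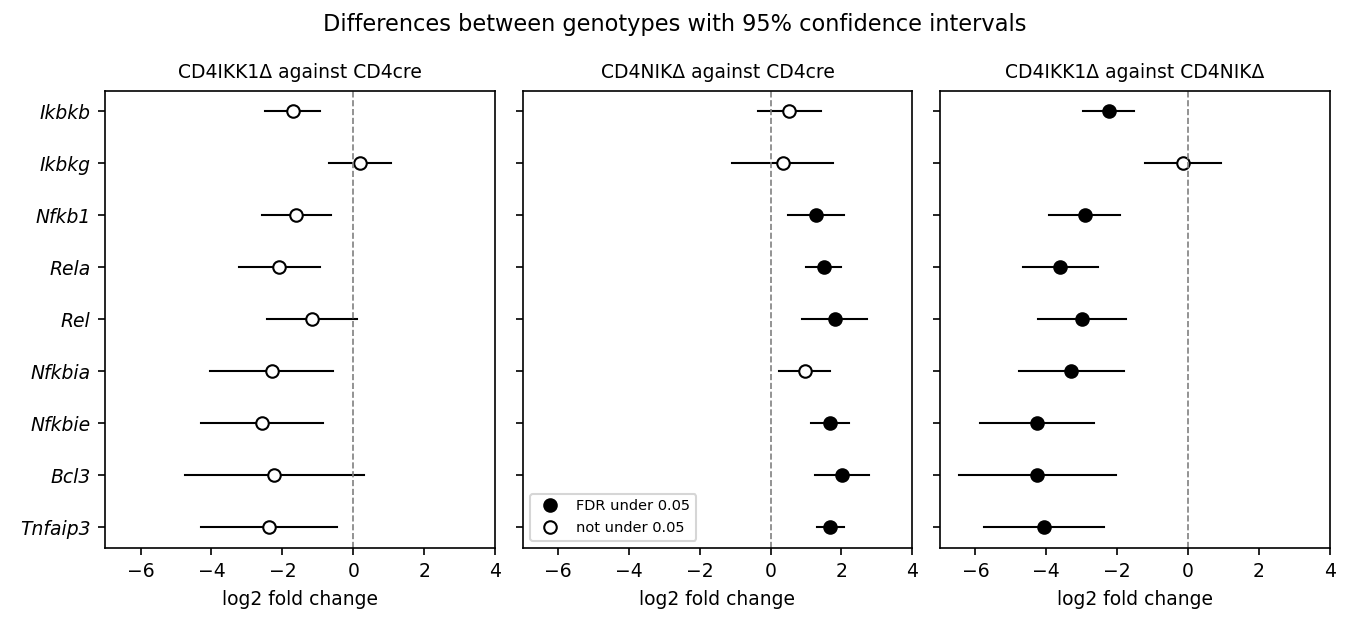
Log2 fold changes (x axis) of the 9 tested members in the 3 comparisons, with TMM factors; points are estimates from edgeR's quasi-likelihood fit, lines are 95% confidence intervals, and filled points have an FDR under 0.05. No point is filled for CD4IKK1Δ against CD4cre, 6 for CD4NIKΔ against CD4cre and 8 for CD4IKK1Δ against CD4NIKΔ, where *Ikbkg* sits at −0.14; under scaling to T cell markers most signs turn.

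With TMM factors, all tested members but *Ikbkg* had their lowest group mean in CD4IKK1Δ, where T cell marker sums were lowest. All 9 had their highest group mean in CD4NIKΔ, where these sums were highest. Within CD4IKK1Δ the order differed, since *Rela*, *Rel* and *Bcl3* were highest in replicate 5 and the marker sum in replicate 3. The libraries with the lowest marker sums, replicates 1 and 2 of CD4IKK1Δ, were among the 2 lowest of the 11 for 7 and 8 of the 9 members, and the CD4NIKΔ libraries were among the 3 highest for 7, 8 and 9 members. Outside the T cell markers, 14 myeloid markers summed to 447 to 1857 CPM in CD4cre, 101 to 259 CPM in CD4IKK1Δ and 649 to 972 CPM in CD4NIKΔ. Of these, 1 to 5 markers were at 0 in each library, and *Csf1r*, which defines macrophages, had between 117 and 1092 counts. The 8 B cell markers summed to 67.9 to 140 CPM, 4.204 to 25.6 CPM and 194 to 666 CPM in the same order, with 0 to 6 of the markers at 0 counts in a library. Neuronal and glial transcripts (10 markers) ran against the members, at 1900 to 2275 CPM in CD4cre, 2452 to 2714 CPM in CD4IKK1Δ and 629 to 1383 CPM in CD4NIKΔ. The 10 tubule markers summed to 18.7 to 80.5 CPM in CD4cre, 5.17 to 11.2 CPM in CD4IKK1Δ and 13.5 to 113 CPM in CD4NIKΔ, and were thus lower in CD4IKK1Δ without overlap. The 5 erythroid markers were also lower there, at 532 to 1614 CPM against 2080 to 2683 CPM in CD4cre, and ran from 1178 to 8189 CPM in CD4NIKΔ. The 6 endothelial markers summed to 86.0 to 97.4 CPM in CD4cre, 83.1 to 107 CPM in CD4IKK1Δ and 58.5 to 78.2 CPM in CD4NIKΔ, the lowest group without overlap. The 8 neutrophil markers stayed between 2.54 and 6.40 CPM, with overlap of all groups. The part of these transcripts from other cell types in the members' differences was not tested.

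**Figure D3:**
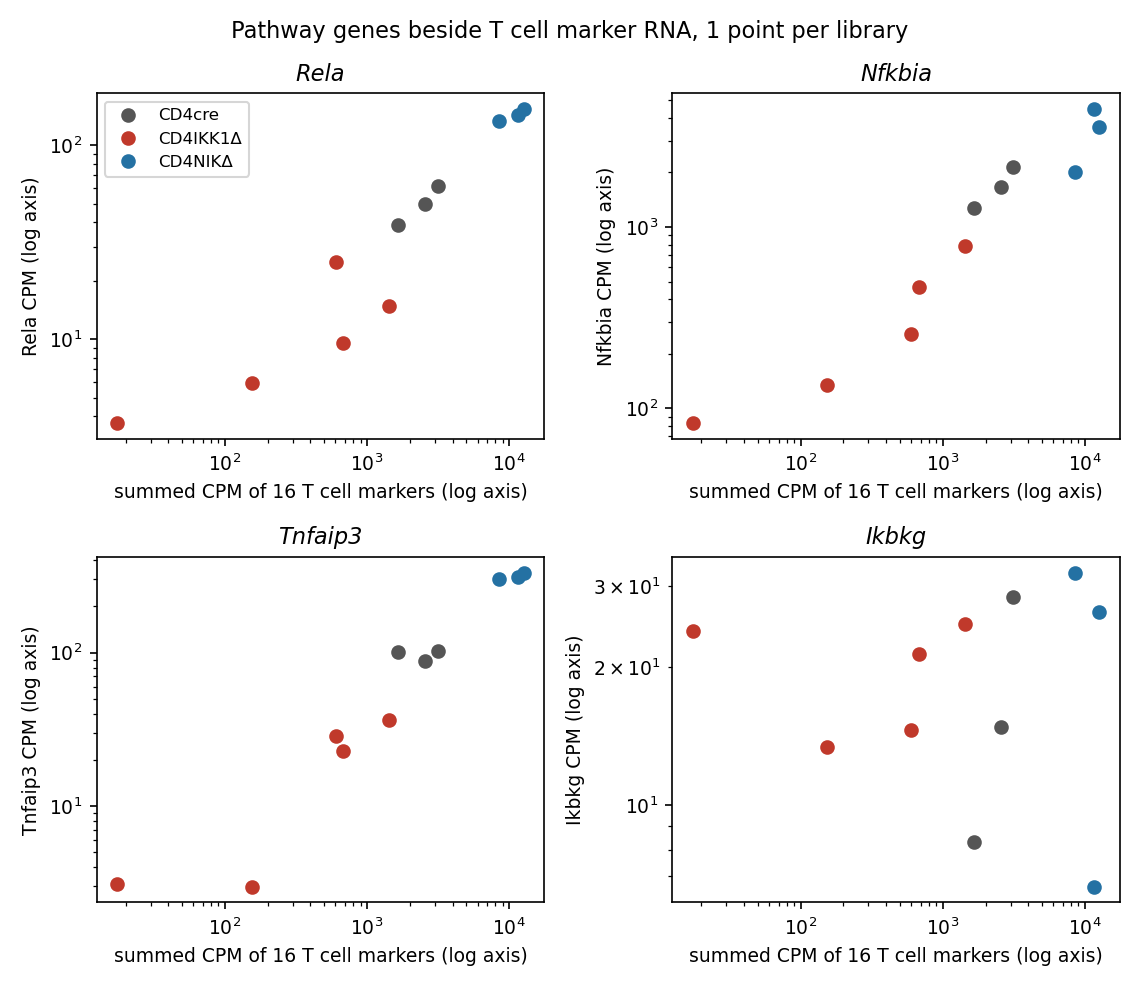
Levels of *Rela*, *Nfkbia*, *Tnfaip3* and *Ikbkg* (y axes, CPM, log scale) against the summed CPM of 16 T cell markers (x axes, log scale), 1 point per library. Libraries with marker sums from 17.5 to 1439 CPM are those labelled CD4IKK1Δ, and those above 8539 CPM are labelled CD4NIKΔ; of the 4 genes shown, *Ikbkg* has no such order.

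With T cell RNA taken into account, the calls above were lost. With the mean log2 level of the T cell markers as a covariate in edgeR, no member was called in any comparison, while 0% of all genes were called between CD4NIKΔ and CD4cre and 4.07% between CD4IKK1Δ and CD4NIKΔ. In the latter comparison *Rela* stood at −1.66 (FDR 0.074), *Ikbkb* at −2.03 (FDR 0.0783) and *Nfkbie* at −0.81 (FDR 0.496), and *Bcl3* turned to 0.51. Between CD4NIKΔ and CD4cre the covariate left *Tnfaip3* at 1.59 (FDR 0.724), *Rela* at 0.64 and *Nfkbie* at 0.94, whereas *Ikbkb*, *Nfkb1*, *Rel*, *Nfkbia* and *Bcl3* had negative estimates, of −0.64, −0.81, −1.20, −1.38 and −0.32. In CD4IKK1Δ against CD4cre the covariate left *Ikbkb* at −1.60, *Nfkbia* at −1.05, *Rela* at −0.998, *Tnfaip3* at −0.92, *Nfkb1* at −0.83, *Nfkbie* at −0.76 and *Rel* at −0.12, with *Bcl3* at 0.32 and *Ikbkg* at 0.25 (edgeR FDRs from 0.619 to 0.994). Since the marker sums of the groups do not overlap, genotype and T cell RNA cannot be told apart by such a fit. Scaling every library to its T cell marker counts moved the median of all genes to −2.21 for CD4NIKΔ against CD4cre and to 7.06 for CD4IKK1Δ against CD4NIKΔ. Under this scaling 70.5% of all genes were called in the first comparison and 86.4% in the second. *Ikbkb*, *Ikbkg* and *Nfkbia* were then called lower in CD4NIKΔ than in CD4cre (edgeR FDRs of 0.00593, 0.0302 and 0.0152), and *Ikbkb* and *Ikbkg* higher in CD4IKK1Δ than in CD4NIKΔ (FDRs of 0.0117 and 0.00163). Relative to these medians, all 9 members lay above the typical gene in CD4NIKΔ against CD4cre, from 0.58 for *Ikbkg* to 2.10 for *Bcl3*. In the comparison of the deletions 8 of the 9 lay below it, from −2.13 for *Ikbkb* to −7.12 for *Bcl3*, with *Ikbkg* 0.10 above. All genes of a library share the same factor, so the side of the median largely carries over from the TMM fit. With the covariate, 3 members lay above the median of all genes and 6 below in CD4NIKΔ against CD4cre. In the comparison of the deletions 1 lay above it and 8 below.

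**Figure D4:**
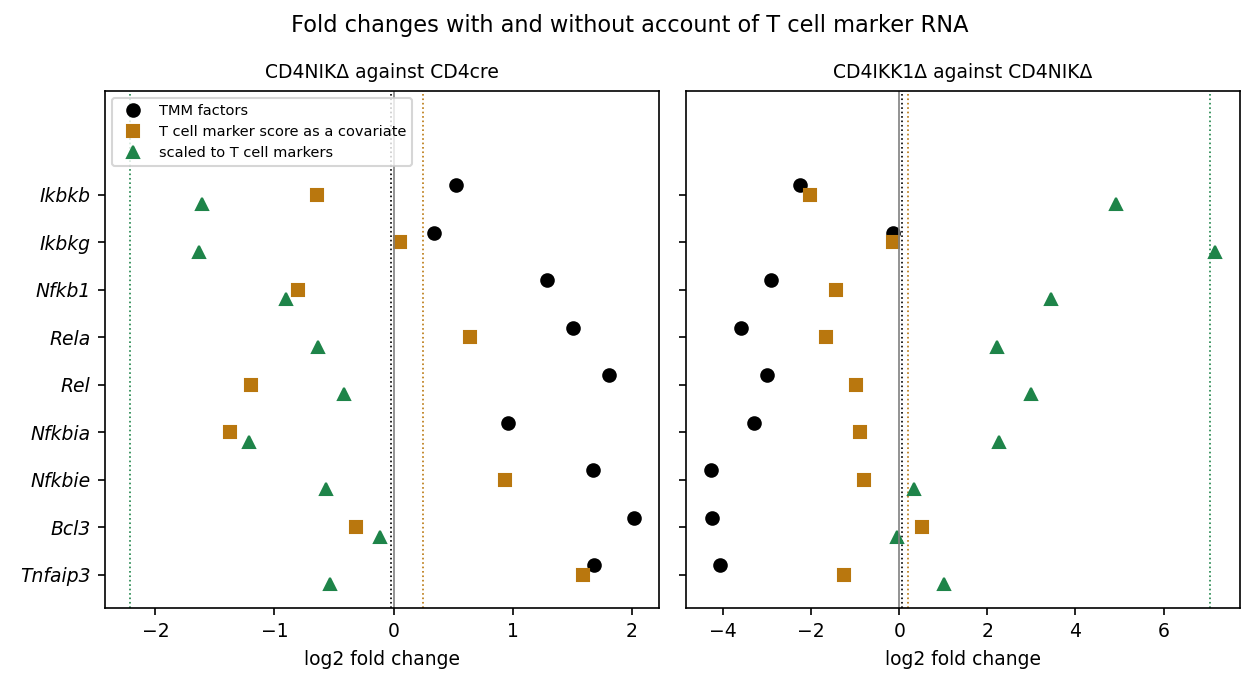
Log2 fold changes (x axis) of the 9 tested members under TMM factors, with the T cell marker score as a covariate and with libraries scaled to T cell markers; dotted lines mark the median of all genes in each fit. For CD4NIKΔ against CD4cre the triangles all lie left of 0 and right of their dotted line at −2.21. For CD4IKK1Δ against CD4NIKΔ 8 of 9 lie left of their dotted line at 7.06. With the same factor for all genes of a library, the side of the median is largely kept.

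Compared per kilobase of the canonical transcript, the members kept much the same order in the controls and in CD4NIKΔ. *Nfkbia* led with 1076 ± 279 CPM per kb (SD, n = 3) in CD4cre, 218 ± 181 (n = 5) in CD4IKK1Δ and 2127 ± 786 (n = 3) in CD4NIKΔ. In CD4cre it was followed by *Bcl3* at 22.5 ± 8.67, *Rela* at 18.5 ± 4.12 and *Tnfaip3* at 14.1 ± 1.16 CPM per kb, neighbours whose ranges over the 3 libraries overlapped. *Nfkbie* (11.5 ± 1.21), *Ikbkb* (10.8 ± 5.70) and *Nfkb1* (9.75 ± 2.44) overlapped with each other as well, but *Nfkbie* lay below *Tnfaip3* without overlap. *Ikbkg* (5.15 ± 3.07) and *Rel* (2.43 ± 0.53) came last among the members above the floor. In CD4NIKΔ the order per kb began with the same 5 genes, with *Bcl3* at 91.9 ± 25.4, *Rela* at 52.8 ± 3.68, *Tnfaip3* at 45.6 ± 2.16 and *Nfkbie* at 37.0 ± 7.91 CPM per kb. In CD4IKK1Δ, *Ikbkg* took the second place by its mean of 5.89 ± 1.59 CPM per kb, ahead of *Bcl3* at 4.80 ± 4.42, with overlap of their ranges. How transcripts of one gene were weighted is not known from summed counts, so that these levels rest on 1 transcript length per gene.

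The ratio of *Nfkbia* to *Rela* RNA was narrow in the 3 controls and wider in the 5 libraries labelled CD4IKK1Δ. Counts of *Nfkbia* per count of *Rela* were 35.1, 33.4 and 32.7 in CD4cre, 22.4, 22.5, 53.0, 48.3 and 10.2 in CD4IKK1Δ, and 15.1, 31.2 and 23.3 in CD4NIKΔ. All CD4NIKΔ ratios lay below those of the controls, and the CD4IKK1Δ ratios lay on both sides. *Tnfaip3* per *Rela* stood at 1.68, 1.76 and 2.58 in CD4cre and at 2.27, 2.15 and 2.16 in CD4NIKΔ, with overlap. In CD4IKK1Δ it was 0.842, 0.5, 2.48, 2.37 and 1.15. *Rel* per *Rela* was 0.382, 0.353 and 0.399 in CD4cre and higher in 5 of 5 CD4IKK1Δ libraries, from 0.412 to 1.24, while CD4NIKΔ ranged from 0.227 to 0.662. *Nfkb1* per *Rela* ranged from 0.767 to 1.13 in CD4cre, from 0.539 to 2.17 in CD4IKK1Δ and from 0.494 to 1.17 in CD4NIKΔ. These ratios do not depend on library scaling but can depend on the mix of cells in a library. They are given as descriptions, without a test.

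Genes that pass signals to the kinase complex moved in part with the members. Of 22 listed adaptors, ligases and kinases, 21 were tested between CD4NIKΔ and CD4cre, with 9 called higher and 1 lower by edgeR (12.1% and 8.97% of all genes), a median log2 fold change of 1.10, and 19 above the median of all genes. Scaled to T cell markers all 21 lay below 0, and again 19 above the median of all genes. With the T cell marker covariate 0 of the 21 were called, where 0% of all genes were. In that fit 9 lay above the median of all genes and 12 below. With the covariate 1 was called lower in CD4IKK1Δ than in CD4NIKΔ, where 4.07% of all genes were called. *Prkcq*, the gene of PKCθ, rose from 48.3 ± 11.9 CPM (SD, n = 3) to 200 ± 22.4 (n = 3), which is 2.04 on the log2 scale (standard error 0.23, FDR 0.00289). *Myd88*, an adaptor of Toll-like and interleukin-1-type receptors, was higher by 1.92 (standard error 0.41, FDR 0.0193) and *Traf2*, an adaptor of TNF receptors, by 1.81 (standard error 0.24, FDR 0.00468). *Map3k7*, the gene of the kinase TAK1 that activates the complex, was the gene called lower, at −3.40 (standard error 0.83, FDR 0.0264 in edgeR), from 5.09 ± 4.53 CPM to 0.483 ± 0.0709 CPM. Between CD4IKK1Δ and CD4NIKΔ, 14 of 21 were called lower and none higher (22% and 20.2% of all genes), led by *Prkcq* (log2 −4.37), *Myd88* (−3.49), *Traf2* (−3.26) and *Malt1* (−2.89), with all 21 above 0 but 20 below the median of all genes when scaled to T cell markers. Against CD4cre, all 20 tested in CD4IKK1Δ had log2 fold changes below 0 (median −0.97), 0 were called by edgeR, and 9 had an unadjusted p under 0.05, as did 16.6% of all genes. Scaled to T cell markers all 20 lay above 0 and below the median of all genes. With the T cell marker covariate 18 lay below 0 and 2 above.

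The other inhibitors and feedback genes were more mixed. Of 19, 5 were called higher and 2 lower in CD4NIKΔ than in CD4cre by edgeR (12.1% and 8.97% of all genes), with a median log2 fold change of 0.50. With upper-quartile factors or library size alone 3 were called higher and 3 lower, where 26% and 22.7% of all genes were called. Scaled to T cell markers 0 were called higher and 13 lower, where 70.5% of all genes were called, and 13 of the 19 lay above the median of all genes, as with TMM factors. With the T cell marker covariate 0 were called, with 6 above the median of all genes and 13 below. The genes of nuclear IκB proteins led, *Nfkbid* with 1.62 (standard error 0.38, FDR 0.0243) and *Nfkbiz* with 1.33 (standard error 0.27, FDR 0.017), together with the ubiquitin ligase gene *Peli1* at 1.38 (standard error 0.36, FDR 0.0321). *Nkiras1*, whose product binds IκB proteins, was lower, at −1.16 (standard error 0.26, FDR 0.021 in edgeR) and 43.1 ± 12.03 against 96.0 ± 10.9 CPM. Between CD4IKK1Δ and CD4NIKΔ, 10 of the 19 were called lower and 3 higher with TMM factors (22% and 20.2% of all genes), with *Nfkbid* at −3.85, *Peli1* at −3.81, *Nfkbiz* at −3.07 and *Tnip1*, a partner of the *Tnfaip3* product, at −2.48, whereas all 19 lay above 0 and 13 below the median of all genes when scaled to T cell markers. With upper-quartile factors 6 were called lower and 3 higher, where 43% of all genes were called. Against CD4cre, 13 of 19 lay below 0 in CD4IKK1Δ (median −0.44), with 0 calls by edgeR and 7 at an unadjusted p under 0.05 (16.6% of all genes). With upper-quartile factors 11 lay below 0, and with the T cell marker covariate 14. Scaled to T cell markers 18 lay above 0, while 12 lay below the median of all genes.

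Among genes commonly listed as NFκB targets in lymphocytes, 16 of 27 were called higher and none lower in CD4NIKΔ than in CD4cre by edgeR (12.1% and 8.97% of all genes), with a median log2 fold change of 1.78. Scaled to T cell markers 18 of the 27 lay below 0 and 23 above the median of all genes in that fit, as with TMM factors. With the T cell marker covariate 0 of the 27 were called, where 0% of all genes were. In that fit 9 lay above the median of all genes and 18 below. With the covariate 3 were called lower in CD4IKK1Δ than in CD4NIKΔ, where 4.07% of all genes were called. *Il2*, the T cell growth factor gene, went from 1.48 ± 0.933 CPM (SD, n = 3) to 23.4 ± 12.3 (n = 3), which is 3.96 on the log2 scale (standard error 0.62, FDR 0.00771). *Cd40lg*, which encodes the ligand by which T cells help B cells, rose by 3.02 (standard error 0.36, FDR 0.00339) and the activation marker *Cd69* by 2.97 (standard error 0.50, FDR 0.00969). *Bcl2l1*, a survival gene, rose by 2.56 (standard error 0.49, FDR 0.0145 in edgeR). Between CD4IKK1Δ and CD4NIKΔ, 20 of 27 were called lower and none higher (22% and 20.2% of all genes, list median −3.88), led by *Il2* (−5.92), *Cd69* (−5.63), *Cd40lg* (−5.63) and the cytokine gene *Lta* (−5.13), whereas 18 of 27 lay above 0 and 25 below the median of all genes when scaled to T cell markers. Several of these genes are themselves typical of T cells, so that the list is not separate from the T cell marker level. In CD4IKK1Δ against CD4cre, 24 of 26 tested were below 0 (median −2.13), with 0 calls by edgeR and 12 at an unadjusted p under 0.05 (16.6% of all genes). Scaled to T cell markers 18 of the 26 lay above 0, while 24 lay below the median of all genes. With the T cell marker covariate 15 lay below 0 and 11 above (median −0.241).

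In the non-canonical arm, *Relb* was the gene called in CD4NIKΔ against CD4cre with TMM factors, among 5 genes (12.1% of all genes were called higher), and scaled to T cell markers all 5 lay below 0 but above the median of all genes. With the T cell marker covariate 0 of the 5 were called, with 1 above the median of all genes and 4 below. *Relb* had 21.3, 12.1 and 35.97 CPM in CD4cre, 7.76, 13.8, 47.0, 19.6 and 7.53 CPM in CD4IKK1Δ, and 88.7, 127 and 123 CPM in CD4NIKΔ. Its log2 fold change against CD4cre was 2.27 (standard error 0.39, FDR 0.0098 in edgeR), and CD4cre and CD4IKK1Δ overlapped fully. *Nfkb2*, the gene of the precursor that NIK and IKK1 act on, had 79.7, 89.3 and 84.1 CPM in CD4cre, 2.07, 14.4, 49.1, 29.1 and 18.0 CPM in CD4IKK1Δ, and 89.2, 229 and 159 CPM in CD4NIKΔ. It was 7.06-fold lower in CD4IKK1Δ than in CD4NIKΔ (log2 −2.82, standard error 0.70, FDR 0.00868), as was *Relb* by 5.91-fold (FDR 0.00402) and *Map3k14* by 3.75-fold (FDR 0.00418 in edgeR), where 22% of all genes were called lower, and scaled to T cell markers all 5 genes lay above 0 but below the median of all genes. *Chuk* (log2 −0.71, FDR 0.0795) and *Traf3*, the adaptor that leads NIK to degradation (log2 −1.30, FDR 0.171 in edgeR), did not pass in that comparison. Against CD4cre, all 5 genes had log2 fold changes below 0 in CD4IKK1Δ with TMM factors, with a median of −0.27, and 0 were called by edgeR, with 2 of 5 at an unadjusted p under 0.05 (16.6% of all genes). With upper-quartile factors 4 of the 5 lay below 0, and with the T cell marker covariate 3. Scaled to T cell markers all 5 lay above 0, with 4 below the median of all genes.

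The genes whose profile over the 11 libraries lay closest to a member were found by the root mean square difference of log2 CPM, each gene centred on its own mean, among 16546 genes. For *Nfkbie* the closest was *Il2rb*, a chain of the interleukin-2 receptor, at 0.229. For *Rela* they were *Tnfrsf18* at 0.327, *Stat5a* at 0.368 and *Mif4gd* at 0.377. *Nfkb1* was closest to *Plaat3* at 0.244 and *Phlda1* at 0.265. *Rel* was closest to *Nfkbiz*, another gene of the IκB family, at 0.383, with *Man2b1* almost equal at 0.384. *Bcl3* lay nearest to the T cell surface gene *Cd2* at 0.438, with *Acp5* almost equal at 0.44. *Tnfaip3* lay nearest to *Fermt3* at 0.36 and *Cish* at 0.406. *Ikbkb* had *Stat2* at 0.353 and *Nfkbia* had *Stk10* at 0.354. These neighbours share the libraries and their T cell RNA with the members, and the distances are descriptions over 11 points.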

How the data were processed

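Renal CD4+ T cells had been enriched with beads, sorted by FACS and their RNA amplified with a SMARTer kit; the labels call the libraries biological replicates. The authors trimmed reads with Trimmomatic and ran kallisto, and deposited estimated counts (expected counts) per gene symbol for 11 libraries, neither normalized nor filtered, of which 35.3% to 41.8% per library were not whole. The methods name GRCm39 as the assembly, whereas the submitters' processing notes list mm10. The annotation is not given in the sources used here. None of the 55 library pairs was identical.

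Counts were rounded. In R 4.3.3, edgeR 4.0.16 (expression filter, TMM, robust quasi-likelihood F test, Benjamini-Hochberg adjustment over all genes tested, FDR under 0.05) compared each deletion group with CD4cre in a fit of those groups, and the deletion groups with each other in a fit of all 11 libraries. Standard errors came from the F statistic. Log2 CPM used a prior count of 2. Alternatives were DESeq2 1.42.0, other factors and filters, other libraries in the fit, a fit that is not robust, a 2-fold threshold, the replicate number as a block, T cell markers as a covariate or as the scale, and leaving out libraries. Scripts were tested on simulated data. Gene positions are from GENCODE M39 (33508 of the symbols matched), with canonical transcripts for length, and promoters from RefSeq on GRCm38.p6, for which the consensus was searched on both strands.

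All members are named with their values. From each list of other pathway genes, at most 4 called genes with the largest absolute log2 fold change per comparison are named, plus the 5 non-canonical genes, and the 3 genes nearest to each called member were computed. The members and lists were chosen with earlier results of these data known, so that none of their directions is independent support. The list counts under each scaling were added after seeing the data. Promoters of *Ikbkb* and *Nfkb1*, and protein sequences, were not used here, and the level of 1 B cell marker is not reported here.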

Additional observations from a re-analysis of the deposited data

Results flagged for a closer look

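*Nfkb1* in replicate 3 of the libraries labelled CD4IKK1Δ stood at 32.0 CPM, above the other 4 libraries of that group, and its gap to the nearest of them was 0.713 of the whole range of the group. Of 10 members looked at in that group, 1 was so far out, and chance gives such a gap in about 1 group in 20. The same library also held the highest T cell marker sum of its group, 1439 CPM; the part of that in the *Nfkb1* level was not tested.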

How the results depend on the processing

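Directions of the members tested were the same with RLE factors, library size alone, either filter, DESeq2 and a fit that is not robust; the filter of 10 counts in every library left *Nfkbie* and *Bcl3* untested in both comparisons of CD4IKK1Δ. In CD4IKK1Δ against CD4cre the number of members called was 0, but 1 with that filter (of 7 tested; 2.07% of all genes), 5 with DESeq2 (4.24%), 1 with the 11 libraries in the fit (0.798%), 1 without CD4IKK1Δ replicates 1 and 2 (0.245%), and 0 in all fits without a library. In CD4NIKΔ against CD4cre it was 6, but 0 with the 11 libraries in the fit, 0 with the T cell marker covariate, 3 (all lower) when scaled to T cell markers, where 70.5% of all genes were called, and 4 to 7 in fits without a library, where 4.28% to 26.4% were. It was 7 with DESeq2 (21.6% of all genes) and with the filter of 10 counts (32.6%), *Nfkbia* being the member gained in both. In CD4IKK1Δ against CD4NIKΔ it was 8, but 0 with the covariate, 2 (both higher) when scaled, where 86.4% of all genes were called, and 8 to 8 in fits without a library. Scaling to T cell markers reversed these log2 fold changes by construction, since it moves all genes. For CD4IKK1Δ against CD4cre they became 3.33 (*Ikbkb*), 2.55 (*Nfkb1*), 1.58 (*Rela*), 2.58 (*Rel*), 1.05 (*Nfkbia*) and 0.49 (*Tnfaip3*). For CD4NIKΔ against CD4cre they became −1.60 (*Ikbkb*), −1.63 (*Ikbkg*), −0.90 (*Nfkb1*), −0.64 (*Rela*), −0.42 (*Rel*), −1.22 (*Nfkbia*), −0.56 (*Nfkbie*), −0.11 (*Bcl3*) and −0.53 (*Tnfaip3*). For CD4IKK1Δ against CD4NIKΔ they became 4.93 (*Ikbkb*), 7.16 (*Ikbkg*), 3.45 (*Nfkb1*), 2.21 (*Rela*), 2.99 (*Rel*), 2.26 (*Nfkbia*), 0.33 (*Nfkbie*) and 1.02 (*Tnfaip3*). The covariate reversed *Bcl3* in CD4IKK1Δ against CD4cre (0.32) and against CD4NIKΔ (0.51), and in CD4NIKΔ against CD4cre *Ikbkb* (−0.64), *Nfkb1* (−0.81), *Rel* (−1.20), *Nfkbia* (−1.38) and *Bcl3* (−0.32); the cause was not tested. *Ikbkg* changed sign easily: in CD4IKK1Δ against CD4NIKΔ it was 0.12 with upper-quartile factors, 0.10 with the replicate block, and −0.58 to 0.25 without a library, and against CD4cre it ranged without a library from −0.14 to 0.76 in CD4IKK1Δ and from −0.053 to 0.90 in CD4NIKΔ.

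Upper-quartile factors moved the median of all genes to 0.111, −0.157 and 0.302 in the 3 comparisons, in the order above, and library size alone to −0.147 and 0.164 in the last 2. The replicate numbers did not pair the libraries, with correlations of deviations from −0.089 to 0.0772; with the replicate block 0, 4 and 8 members were called (0.0192%, 7.8% and 34.7% of all genes), *Nfkb1* (FDR 0.0547) and *Rel* (FDR 0.0603) losing their calls in edgeR in CD4NIKΔ against CD4cre. In CD4IKK1Δ against CD4cre the block gave no call but moved log2 fold changes, the most from −2.23 to −4.06 (*Bcl3*), −2.37 to −3.87 (*Tnfaip3*), −2.57 to −3.86 (*Nfkbie*) and −1.17 to −2.27 (*Rel*). In CD4IKK1Δ against CD4NIKΔ values were wide as well. Over all alternatives that kept every library or left out several, they ran from −5.35 to 0.51 (*Bcl3*), −5.195 to 1.02 (*Tnfaip3*) and −5.18 to 0.33 (*Nfkbie*). At 3 to 5 libraries a group, whose p-values measure the spread between these libraries, *Nfkbib* was not detectable, and genotype and T cell RNA cannot be told apart.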
